A study of Mus musculus with 6 samples.

Results

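The genes described here are 35 genes of DNA replication and of the step from G1 into S phase. They were chosen by symbol, and each symbol belonged to 1 of the 46603 gene identifiers with counts. Sequencing of poly(A) RNA covered 6 EGC cultures, EGC standing for enteric glial cell, a glial cell of the gut's own nervous system, and served to find factors through which EGCs could act on monocytes. The source was the intestine of E14.5 embryos of the C57BL/6J strain, with no genetic change named. Cells had passed through neurospheres, which are floating clusters of neural progenitors grown with EGF and FGF, before growth on coated plates in medium with serum until confluence. The 3 control cultures received no treatment, and 3 cultures received lipopolysaccharide (LPS, a component of bacterial cell walls) at 100 ng/ml for 12 h. The labels do not say whether cultures of a group came from separate litters, so the p-values measure the spread between these cultures, which may be technical. Whole intestine was the source, and no sorting step is described.

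DNA is copied once per cell cycle. In G1, the origin recognition complex with CDC6 and CDT1 loads the ring of MCM proteins onto DNA, and in S phase CDC45 and the GINS complex turn that ring into the moving helicase. Primase and the DNA polymerases then copy both strands, held on DNA by the sliding clamp PCNA, which a clamp loader of RFC subunits puts in place. Many of these genes are transcribed at the G1/S boundary by E2F factors once cyclins D and E with their kinases have switched off the retinoblastoma protein, so their summed RNA is widely used as a readout of how many cells are in or near S phase. In bulk RNA, fewer cells with a transcript and less of it per cell cannot be told apart.

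Library totals ran from 18775316 to 23664312 counts. The 35 genes together made up from 0.0725% to 0.161% of a library, and the lowest single count was 39, for Gins1 in LPS replicate 2. Values below are CPM, the unit in which counts are scaled to a common library total, with library sizes corrected by the trimmed mean of M-values (TMM). Among glial markers, Sox10, a transcription factor of glia and their progenitors, was at 101, 89.5 and 73.8 CPM in control and 76.8, 78.2 and 75.9 CPM in LPS. S100b, a calcium-binding protein of glia, was at 24.7, 20.5 and 21.4 CPM in control and 4.94, 3.46 and 9.37 CPM in LPS. The 7 mesenchymal markers summed to between 15085 and 16122 CPM over all libraries, most of it from 3 collagen genes. Of these 7, 0 were called lower and 2 higher without the block, and 1 lower and 2 higher with it. Of 5 epithelial markers, 1 passed the filter. The 7 smooth muscle markers summed to between 2425 and 2659 CPM in control and between 683 and 953 CPM in LPS, with 7 of 7 called lower, and their part in the values below was not tested. All 13 macrophage markers passed the filter on low counts, and their sum was highest in the libraries numbered 3. It was 4221, 5482 and 12950.3 CPM in control replicates 1, 2 and 3 and 4110.1, 5329 and 20496 CPM in LPS replicates 1, 2 and 3. Each of the 13 was highest in replicate 3 of its group, but between the groups they differed in direction, with 0 called lower and 1 higher without the block and 4 lower and 4 higher with it. The sum of 7 neuron markers was lowest in the same libraries, at 420.3, 416 and 247 CPM in control and 387, 407 and 263 CPM in LPS. Beside these marker counts, 6.71% of all genes were called lower and 9.09% higher without the block, and 14.9% lower and 15.4% higher with it.

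All 35 genes passed the filter on low counts, and their levels differed widely when set against gene length. Dividing CPM by the kilobases of merged exons (GENCODE M21, GRCm38), the clamp gene Pcna stood first at 53.5 ± 18.1 CPM per kilobase in control (SD, n = 3), and its lowest control library lay above the highest control library of each other gene. Rrm2, Mcm6, Mcm4 and Rrm1 followed at 20.3 ± 4.10, 19.1 ± 9.14, 17.8 ± 5.01 and 16.9 ± 0.671 CPM per kilobase (SD, n = 3), and neighbours among these overlapped over their control libraries. The scarcest were Orc1 at 1.08 ± 0.386, Mcm10 at 1.36 ± 0.688, Cdc6 at 1.49 ± 0.788 and Pole at 1.50 ± 0.524 CPM per kilobase in control (SD, n = 3). The subunits of the MCM ring, which assemble in equal numbers, ran from 7.50 ± 2.10 for Mcm2 to 19.1 ± 9.14 for Mcm6 in control, on a length that includes every annotated exon whether used in these cells or not. In LPS, Pcna and Rrm2 kept the first and second place and Orc1 the last, although Rrm2 overlapped Mcm4 and Mcm6 and Orc1 overlapped Pole.

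**Figure D1:**
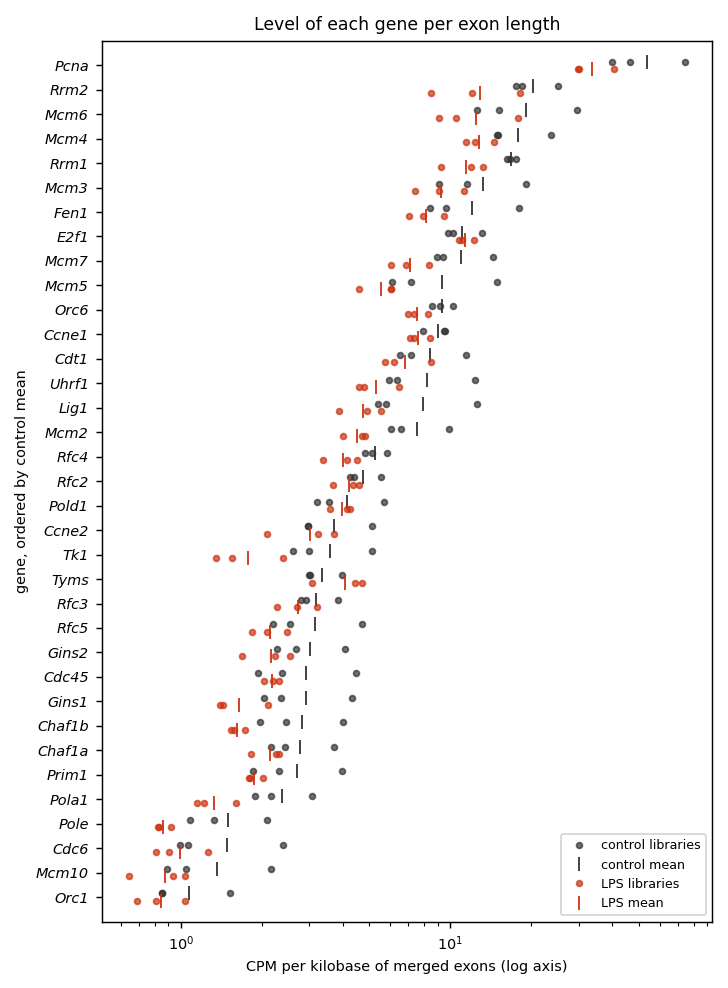
Level of each of the 35 genes in CPM per kilobase of merged exons (log axis), with 1 point per library and a tick at the mean of the 3 control or 3 LPS libraries. Pcna stands apart at the top, most neighbours overlap, and 1 control point, replicate 3, lies to the right of the others in nearly every row.

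The first comparison asked whether LPS changed the RNA of the replication genes. Lower fitted values in LPS prevailed, but no gene passed the test that leaves the replicate numbers out. The log2 fold change fitted by edgeR was below 0 for 33 of 35 genes, with Tyms and E2f1 as the exceptions, against 52% of all genes. The median was -0.55 against -0.02 over all 15226 genes tested. None of the 35 was called by the quasi-likelihood test at an adjusted p under 0.05, while 15.8% of all tested genes were called, 6.71% lower and 9.09% higher. The lowest adjusted p was 0.0507, for Rrm1. At an unadjusted p under 0.05, 9 of the 35 were lower and 0 higher, against 16% lower and 16.1% higher over all genes. DESeq2 called 5 lower (Mcm2, Pola1, Pole, Rrm1 and Tk1), against 11% of all genes, and limma-voom 0, against 6.05%. The LPS libraries lay entirely below the control libraries for 11 of 35 genes, against 19.4% of all genes, and entirely above for 0, against 19.3%.

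Libraries numbered 3 deviated together (r = 0.617), while numbers 1 and 2 were not told apart. Control replicate 2 had r = 0.324 with LPS replicate 1 and 0.328 with LPS replicate 2, which was more like control replicate 1 (r = 0.404). The labels do not say what a number stands for, so calls with the block rest on a pairing taken from these data. The fit with the number as a block called 6 of the 35 lower and 0 higher. They were Pcna, Mcm2, Mcm6, Gins1, Rrm1 and Chaf1b. Over all genes this fit called 30.3%, of which 14.9% lower and 15.4% higher, so the share called lower among the 35 was close to that background. Without pair 1 the block called 1 lower (Mcm6) against 1.51% of all genes, without pair 2 it called 0 against 1.32%, and without pair 3 it called 10 against 24.1%, with Tyms called higher. Each of the 6 was lower in LPS in all 3 pairs, which held for 22 of 35 genes against 34.6% of all genes. The pairs differed from each other. The median log2 difference of LPS against control over the 35 was -0.05 in pair 1, -0.44 in pair 2 and -0.93 in pair 3, and in pair 3 all 35 were lower. For all tested genes these medians were -0.03, -0.04 and -0.0031.

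Control replicate 3 carried much of this. Its level exceeded that of control replicates 1 and 2 for 34 of 35 genes, Ccne1 being the exception, against 42.7% of all genes. Without control replicate 3 the median log2 fold change of the 35 was -0.18, 28 of 35 were below 0 and 0 were called, against 6.66% of all genes called lower in that fit. Without both libraries numbered 3 the median was -0.18 as well, but 7 genes were called lower (Pcna, Mcm2, Mcm6, Pola1, Pole, Rrm1 and Chaf1b) and Tyms higher, against 20.4% lower and 22.6% higher of all genes in that fit.

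**Figure D2:**
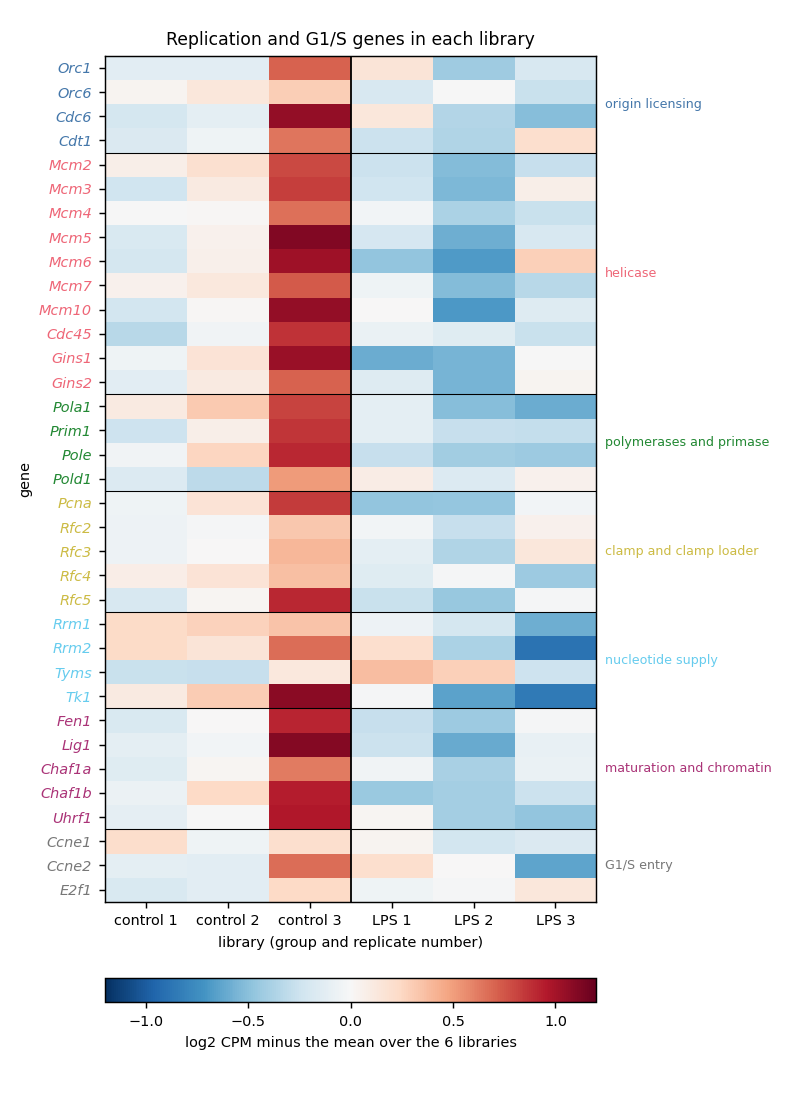
Log2 CPM of each gene minus its mean over the 6 libraries, with genes in rows grouped by role and libraries in columns (red above the mean, blue below). The column of control replicate 3 is red in every row, and the column of LPS replicate 2 is blue in nearly every row but Tyms. Tyms, Rrm2 and Ccne2 are red in LPS replicate 1, and Mcm6 and Cdt1 in LPS replicate 3.

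**Figure D3:**
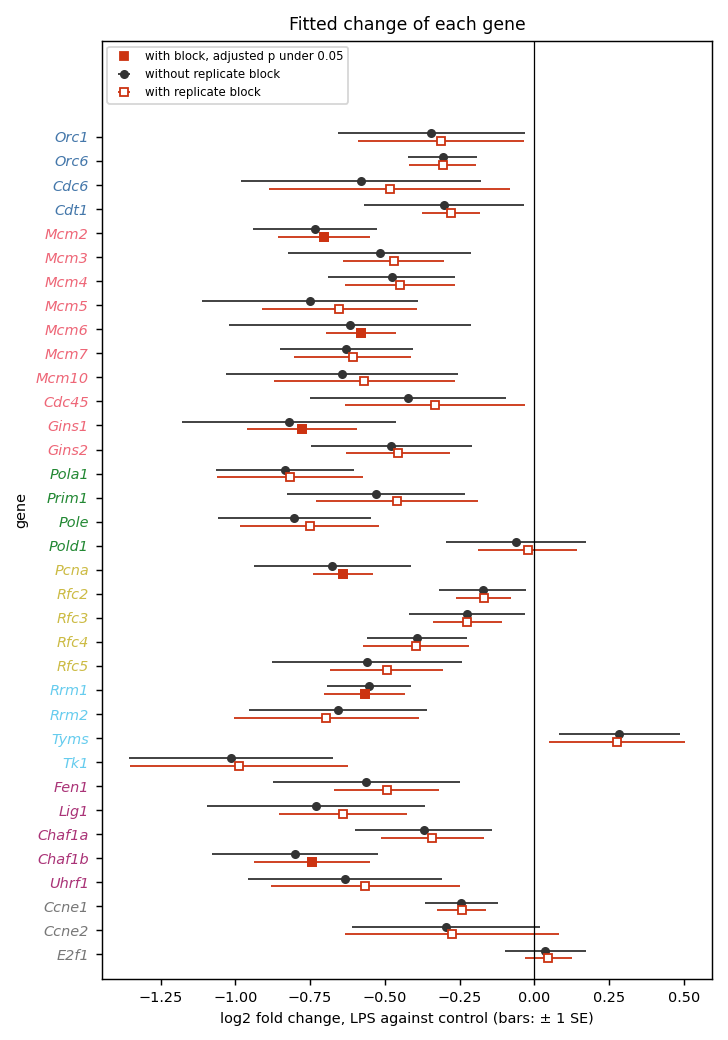
Fitted log2 fold change of LPS against control for each gene (points, with bars of 1 SE) without the replicate block (circles) and with it (squares, filled where the adjusted p was under 0.05). Points for 33 genes lie left of 0 in both fits, and the 6 filled squares are Mcm2, Mcm6, Gins1, Pcna, Rrm1 and Chaf1b.

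Among the genes that license origins, none was called in either fit. ORC1, the largest subunit of the origin recognition complex, and CDC6 are the ATPases that start loading. Orc1 was at 2.97, 2.97 and 5.29 CPM in control replicates 1, 2 and 3 and at 3.61, 2.40 and 2.83 CPM in LPS replicates 1, 2 and 3, a log2 fold change of -0.34 (SE 0.31, edgeR adjusted p = 0.501). Cdc6 was at 5.21, 5.58 and 12.5 CPM in control and 6.62, 4.74 and 4.24 CPM in LPS, a log2 fold change of -0.58 (SE 0.40, edgeR adjusted p = 0.374). Only control replicate 3 was high for both genes, and the other 5 libraries overlapped. Orc6, another subunit of the origin complex, was at 21.1, 22.6 and 25.3 CPM in control and 18.1, 20.5 and 17.2 CPM in LPS. Its groups did not overlap, and the difference was small, a log2 fold change of -0.31 (SE 0.12, edgeR adjusted p = 0.134). For Cdt1, which brings the MCM ring to the origin complex, the fitted change was -0.30 (SE 0.27, edgeR adjusted p = 0.488), with both libraries numbered 3 above the others of their group, at 36.1 and 26.6 CPM.

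All 10 helicase genes had fitted values below 0, from -0.82 for Gins1 to -0.42 for Cdc45, and 3 of them were called with the block, against 52% of all genes below 0 and 14.9% called lower with the block. Mcm2 encodes a subunit of the MCM ring that also binds histones (chr6:88883474-88898780 on the minus strand, GRCm38). It was at 42.0, 45.6 and 68.9 CPM in control replicates 1, 2 and 3 and at 33.5, 27.9 and 32.9 CPM in LPS replicates 1, 2 and 3. Every LPS library was below every control, a log2 fold change of -0.73 (SE 0.21, edgeR adjusted p = 0.0670), and with the block the value was -0.70 (SE 0.15, edgeR adjusted p = 0.0323). Mcm6 (chr1:128331590-128359664, minus strand) behaved otherwise. Its CPM was 58.7, 70.8 and 138 in control and 49.0, 42.4 and 83.0 in LPS, so the libraries numbered 3 were the highest of both groups and the groups overlapped. Without the block its change was -0.62 (SE 0.40, edgeR adjusted p = 0.350), and with the block -0.58 (SE 0.12, edgeR adjusted p = 0.0270).

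The other 4 subunits of the ring were not called in either fit. Mcm3 had -0.52 (SE 0.31), Mcm4 -0.48 (SE 0.21), Mcm5 -0.75 (SE 0.36) and Mcm7 -0.63 (SE 0.22) on the log2 scale. Their edgeR adjusted p-values without the block ran from 0.115 to 0.304. Mcm5 showed the pattern of control replicate 3 most plainly, with 24.2, 28.5 and 59.4 CPM in control and 24.0, 18.4 and 24.1 CPM in LPS. Counts of Mcm7 are uncertain, since 18.1% of its 50-base words also occur in transcripts of other genes, mostly the gene model Gm5487, and its exons hold Mir25 and Mir93.

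GINS and CDC45 join the ring when the helicase is activated. Gins1 (chr2:150905400-150931280, plus strand) was at 3.09, 3.59 and 6.57 CPM in control and 2.12, 2.17 and 3.19 CPM in LPS, where LPS replicate 3 lay above the lowest control. The change was -0.82 (SE 0.36, edgeR adjusted p = 0.178) without the block and -0.78 (SE 0.18, edgeR adjusted p = 0.0390) with it. Gins2 had -0.48 (SE 0.27, edgeR adjusted p = 0.280), but 67.3% of its exon length lies opposite exons of Gse1. Cdc45 was at 6.78, 8.32 and 15.7 CPM in control and 8.10, 7.75 and 7.12 CPM in LPS, a log2 fold change of -0.42 (SE 0.33, edgeR adjusted p = 0.427). Mcm10, which helps the helicase to fire, was at 6.86, 8.06 and 16.6 CPM in control and 8.01, 4.96 and 7.17 CPM in LPS, a log2 fold change of -0.64 (SE 0.39, edgeR adjusted p = 0.310). For both, LPS replicate 1 lay above control replicate 1 and control replicate 3 was the highest library.

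Among the 4 genes of polymerases and primase, Pola1 and Pole had the lowest fitted values and Pold1 the value nearest 0. Pola1 encodes the catalytic subunit of the polymerase that extends primers (chrX:93304767-93632155, minus strand). It was at 16.6, 19.1 and 27.0 CPM in control and 14.2, 10.8 and 10.2 CPM in LPS, a log2 fold change of -0.84 (SE 0.23, edgeR adjusted p = 0.0615). Pole, the leading-strand polymerase, was at 12.1, 14.9 and 23.3 CPM in control and 10.3, 9.31 and 9.21 CPM in LPS, a log2 fold change of -0.80 (SE 0.26, edgeR adjusted p = 0.0887). In both genes the groups did not overlap, and neither was called with the block, at edgeR adjusted p-values of 0.0667 and 0.0736. Prim1, the catalytic subunit of primase, had -0.53 (SE 0.30, edgeR adjusted p = 0.278). Pold1, the catalytic subunit of the lagging-strand polymerase, was at 17.3, 15.6 and 27.6 CPM in control and 20.6, 17.3 and 20.0 CPM in LPS. Its groups overlapped, and its log2 fold change of -0.06 (SE 0.23, edgeR adjusted p = 0.887) changed sign without control replicate 3.

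Pcna, the sliding clamp that tethers polymerases and recruits many replication and repair proteins (chr2:132249162-132253314, minus strand), was the most abundant per length and had the lowest adjusted p of the 35 with the block. It was at 96.0, 112 and 178 CPM in control replicates 1, 2 and 3 and 71.8, 72.2 and 97.3 CPM in LPS replicates 1, 2 and 3. LPS replicate 3 lay just above the lowest control, yet each LPS library was below the control of its own number. Its log2 fold change was -0.68 (SE 0.26, edgeR adjusted p = 0.140), and -0.64 (SE 0.10, edgeR adjusted p = 0.0154) with the block. Reads of Pcna may be split with a processed copy, since 19.1% of its 50-base words occur in Pcna-ps2. None of the clamp loader subunits was called. Rfc2, Rfc3, Rfc4 and Rfc5 had log2 fold changes of -0.17 (SE 0.15), -0.23 (SE 0.19), -0.39 (SE 0.17) and -0.56 (SE 0.32). Rfc4 was the one of these whose groups did not overlap, at 7.37, 7.84 and 8.97 CPM in control and 6.33, 6.91 and 5.18 CPM in LPS, and Rfc5 had the highest ratio of control replicate 3 to the other controls, 1.99.

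Genes that supply deoxynucleotides differed from one another. Rrm1, the large subunit of ribonucleotide reductase (chr7:102441695-102469771, plus strand), had the smallest SD of log2 CPM of the 35 in control, at 179, 184 and 194 CPM against 146, 132 and 102 CPM in LPS. All LPS libraries were lower, a log2 fold change of -0.55 (SE 0.14, edgeR adjusted p = 0.0507), and with the block -0.57 (SE 0.14, edgeR adjusted p = 0.0398). The small subunit Rrm2, whose protein is limited to S phase, was at 51.0, 48.6 and 69.3 CPM in control and 50.2, 33.4 and 23.6 CPM in LPS, with LPS replicate 1 inside the control range and LPS replicate 3 the lowest of all, a log2 fold change of -0.66 (SE 0.30, edgeR adjusted p = 0.192). Tk1, the thymidine kinase of S phase, had the lowest fitted value of the 35. It was at 13.6, 15.6 and 26.7 CPM in control and 12.5, 8.08 and 7.01 CPM in LPS without overlap, a log2 fold change of -1.01 (SE 0.34, edgeR adjusted p = 0.100), but it was not called in either edgeR fit. Tyms, which makes thymidylate, stood against the rest at 18.4, 18.3 and 24.2 CPM in control and 28.6, 27.0 and 18.7 CPM in LPS. LPS replicates 1 and 2 were above all controls and LPS replicate 3 was not, which gave a log2 fold change of 0.28 (SE 0.20, edgeR adjusted p = 0.388), and with both libraries numbered 3 left out Tyms was called higher at 0.62 (edgeR adjusted p = 0.00117). Of its 50-base words, 5.25% occur in other genes, chiefly Tyms-ps.

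Among genes of lagging-strand maturation and of chromatin behind the fork, Chaf1b was called with the block and the other 4 in neither fit. FEN1 trims and LIG1 seals Okazaki fragments. Lig1 was at 23.1, 24.6 and 53.7 CPM in control and 21.0, 16.4 and 23.6 CPM in LPS, a log2 fold change of -0.73 (SE 0.36, edgeR adjusted p = 0.229), with LPS replicate 3 above control replicate 1. For Fen1 the values were 20.4, 23.3 and 43.7 CPM in control and 19.1, 17.1 and 23.0 CPM in LPS, a log2 fold change of -0.56 (SE 0.31, edgeR adjusted p = 0.276), but 84.2% of its exon length lies opposite exons of other genes, Tmem258 among them. Chaf1b encodes the middle subunit of the chromatin assembly factor that deposits histones on new DNA (chr16:93883901-93906115, plus strand). It was at 9.24, 11.5 and 18.7 CPM in control and 7.17, 7.36 and 8.11 CPM in LPS without overlap, a log2 fold change of -0.80 (SE 0.28, edgeR adjusted p = 0.108), and -0.74 (SE 0.19, edgeR adjusted p = 0.0487) with the block, a call that was lost under RLE factors (edgeR adjusted p = 0.0545). Its partner Chaf1a had -0.37 (SE 0.23, edgeR adjusted p = 0.320), on exons of which 52.5% lie opposite Ubxn6. Uhrf1, which brings the maintenance methyltransferase to new DNA, was at 25.2, 27.0 and 52.8 CPM in control and 27.6, 20.5 and 19.6 CPM in LPS, a log2 fold change of -0.63 (SE 0.33, edgeR adjusted p = 0.240), and 15.4% of its 50-base words occur in other gene models.

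The 3 genes that drive entry into S phase were called in neither fit. E2f1, an activating E2F factor, was at 31.0, 32.2 and 41.4 CPM in control and 33.9, 34.9 and 38.5 CPM in LPS. The LPS libraries lay inside the control range, a log2 fold change of 0.04 (SE 0.14, edgeR adjusted p = 0.881), and the sign turned with upper-quartile factors or library size alone. Ccne1 and Ccne2 encode cyclin E. Ccne1 was at 25.5, 21.2 and 25.3 CPM in control and 22.4, 18.9 and 19.5 CPM in LPS. Ccne2 was at 10.4, 10.4 and 18.0 CPM in control and 12.9, 11.3 and 7.28 CPM in LPS. Their log2 fold changes were -0.24 (SE 0.12, edgeR adjusted p = 0.227) and -0.30 (SE 0.31, edgeR adjusted p = 0.567). For Ccne2, LPS replicates 1 and 2 were above control replicates 1 and 2, and LPS replicate 3 was the lowest library.

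Control replicate 3 was high for nearly all of the 35 genes, and LPS replicate 3 was high for some and low for others. Against the mean of the other 2 controls, control replicate 3 had a median ratio of 1.72 over the 35 genes (all tested genes, 0.997), with 26 genes at 1.5 or more and 8 at 2 or more, from 1.07 for Rrm1 to 2.32 for Cdc6. In LPS the same ratio had a median of 1.06 (all tested genes, 1.00) and ran from 0.564 for Rrm2 to 1.81 for Mcm6. LPS replicate 3 was above both other LPS libraries for 14 genes (44.1% over all genes), among them 5 of 10 helicase genes and 4 of 5 clamp and clamp loader genes. It was below both for 13 genes, among them all 4 nucleotide supply genes and 3 of 4 polymerase and primase genes. The share of all genes below both was not counted, and these groups of genes are small. The SD of log2 CPM between cultures had a median of 0.46 in control and 0.25 in LPS over the 35 genes, and of 0.18 and 0.21 over all genes. Macrophage markers were summed highest and neuron markers lowest in these same 2 libraries, and their part in the pattern was not tested. A marker list of 15 mitosis genes summed to 345.0, 400.3 and 614.1 CPM in control replicates 1, 2 and 3 and to 305.5, 238.0 and 182.6 CPM in LPS replicates 1, 2 and 3. These sums were lower in every LPS library than in every control, and 2 of the 15 genes were called lower in each fit, against 6.71% of all genes without the block and 14.9% with it.

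**Figure D4:**
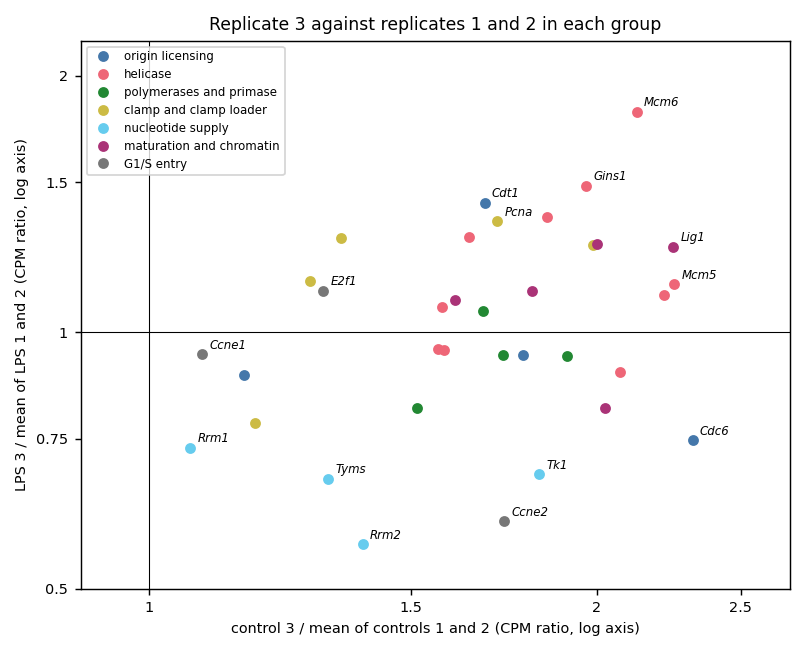
For each gene, the CPM of control replicate 3 divided by the mean of control replicates 1 and 2 (x axis) against the same ratio among LPS libraries (y axis), both on log axes and coloured by role. All points lie right of 1 on the x axis, and on the y axis they spread from 0.564 to 1.81, with the nucleotide supply genes and Ccne2 among the lowest.

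The correlation of each gene with the mean log2 CPM of the other 34, over the same 6 libraries, was above 0.9 for 9 of the 10 helicase genes and was highest for Mcm5 (0.992), Mcm4 (0.986) and Chaf1a (0.975). It was lowest for Tyms (-0.0055), E2f1 (0.525) and Rrm1 (0.654). Outside the list, among 11425 genes with a mean of at least 5 CPM, the log2 CPM that ran most like the mean of the 35 over these libraries included that of Mis18a, Hells, Nup155, H2afz, Galnt7, Dtl, Prcp, Asf1b and Ncaph, with Pearson r from 0.993 down to 0.987. Hells and Asf1b, which act on chromatin during replication, also stand in the list of other replication genes below. The mean log2 CPM of the 35 was 4.97 in control replicate 3 and between 3.88 and 4.29 in the other 5 libraries, and the correlations are a description of these 6 points, which were scaled together.

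The promoters of the 35 genes were read for letters that E2F factors are known to bind, because the genes varied together. RefSeq promoters (GRCm38.p6, 250 bases before to 50 after the start of a transcript) were matched for 29 of the 35 genes. A match to TTTCCCGC, TTTCGCGC, TTTGCCGC or TTTGGCGC on either strand was present in 12 of these 29 (41.4%, Wilson 95% interval 25.5% to 59.3%), against 2.61% of 27025 genes with a promoter of the same length. The letters were also present in the lists described below, in 28.6% (17.8% to 42.4%) of the other replication genes and 32.1% (17.9% to 50.7%) of the G1/S control genes, with overlapping intervals. In the 250 bases before the start alone the shares were 27.6%, 16.3% and 28.6%, and nothing in these shares is particular to the 35. Base composition differed as well, with a median GC content of 60.2% in the 29 and 52.8% in all. The genes with a match were Orc1, Cdc6, Cdt1, Mcm3, Mcm5, Mcm6, Mcm7, Pola1, Pold1, Rfc3, Lig1 and Uhrf1. The CCAAT letters, on either strand, were present in 17 of 29 (58.6%) against 41.1% of all. The following 50-base stretches, each before a RefSeq start, are shown for genes of the helicase, the polymerases, licensing and chromatin. Mcm7 and Uhrf1 had 2 RefSeq promoters each, and the one with a match is shown. By the gene spans of GENCODE M21, the stretches of Cdc6, Mcm7 and Uhrf1 lie inside the gene, and that of Orc1 does in part. All stretches are written 5′ to 3′ on the strand of the gene, with the matches in capitals.
Mcm5, chr8:75109337-75109386, plus strand: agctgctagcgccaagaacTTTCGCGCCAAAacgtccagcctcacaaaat
Mcm6, chr1:128359785-128359834, minus strand: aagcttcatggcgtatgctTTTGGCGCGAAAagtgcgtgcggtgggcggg
Mcm7, chr5:138172020-138172069, minus strand: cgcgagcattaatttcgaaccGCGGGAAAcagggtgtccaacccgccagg
Pola1, chrX:93632265-93632314, minus strand: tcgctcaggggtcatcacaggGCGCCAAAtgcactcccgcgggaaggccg
Cdc6, chr11:98907992-98908041, plus strand: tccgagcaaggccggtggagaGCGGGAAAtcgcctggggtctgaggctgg
Orc1, chr4:108579404-108579453, plus strand: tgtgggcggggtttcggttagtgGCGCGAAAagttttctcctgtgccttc
Uhrf1, chr17:56304107-56304156, plus strand: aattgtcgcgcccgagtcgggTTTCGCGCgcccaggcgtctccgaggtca

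In Mcm5 and Mcm6 a pair of overlapping matches forms a run of 12 bases, TTTCGCGCCAAA in Mcm5 and TTTGGCGCGAAA in Mcm6, which is its reverse complement. Both genes were among the 8 at 2 or more in control replicate 3, with ratios of 2.26 and 2.13, while their ratios in LPS replicate 3 were 1.14 and 1.81. Of these 8, Cdc6, Lig1 and Uhrf1 also held a match, and Mcm10, Cdc45 and Fen1 held none. The other genes with a match had lower ratios in control replicate 3, from 1.35 for Rfc3 to 1.85 for Mcm3. A link between the letters and the ratios was not tested. Pcna, Mcm2, Rrm1 and Chaf1b were matched to promoters without these letters in the window, which says nothing of whether an E2F factor binds there. A match was counted as letters only, and no binding was measured in these cultures.

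Next, 58 other genes of DNA replication were examined. Without the block 3 were called lower (Rpa1, Mcm8 and Rrm2b) and 1 higher (Pole4), against 6.71% and 9.09% of all genes. With the block 7 were called lower and 3 higher, against 14.9% and 15.4%. The median log2 fold change was -0.27, and 44 of the 58 were below 0. Rpa1, the large subunit of the protein that coats single-stranded DNA, was at 89.3, 94.8 and 107 CPM in control and 65.0, 58.6 and 63.5 CPM in LPS, a log2 fold change of -0.64 (SE 0.09, edgeR adjusted p = 0.0117). Mcm8, a relative of the MCM ring that acts in repair, had -0.87 (SE 0.21, edgeR adjusted p = 0.0452). Rrm2b, the small reductase subunit induced by p53, had -0.45 (SE 0.11, edgeR adjusted p = 0.0494). Pole4, a histone-fold subunit of the leading-strand polymerase, was at 26.0, 26.1 and 29.5 CPM in control and 38.1, 37.8 and 38.4 CPM in LPS, a log2 fold change of 0.49 (SE 0.08, edgeR adjusted p = 0.0180). Without any one library the log2 fold changes ran from -0.69 to -0.55 for Rpa1, from -0.996 to -0.664 for Mcm8, from -0.53 to -0.37 for Rrm2b and from 0.46 to 0.56 for Pole4, and calls were lost. Omitting control replicate 1, LPS replicate 1 or LPS replicate 3 left 1 gene called lower, omitting control replicate 2 or LPS replicate 2 left 0, and the call of Pole4 was lost without control replicate 1 or 2 or LPS replicate 1 or 2. The share of all genes called lower was 0.72% to 1.44% without control replicate 1 or 2 or LPS replicate 1 or 2, so calls were lost across the whole table in those fits. Without LPS replicate 3 it was 9.13%.

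With the block, Gmnn, which encodes the CDT1 inhibitor geminin, was called lower at a log2 fold change of -0.86 (edgeR adjusted p = 0.0435), as were Wdhd1, an adaptor of the replication fork, at -0.92 (adjusted p = 0.0227), Dut, which removes dUTP, at -0.38 (adjusted p = 0.0408) and Gins4 at -0.33 (adjusted p = 0.0396). A pair of genes that set nucleotide pools was called higher with the block. Samhd1, which breaks deoxynucleotides down, was at 62.2, 67.4 and 88.4 CPM in control and 118, 142 and 490.3 CPM in LPS, with a blocked log2 fold change of 1.49 (SE 0.34, edgeR adjusted p = 0.0370). Dck, the deoxycytidine kinase of the salvage pathway, was at 16.9, 19.7 and 35.1 CPM in control and 25.5, 30.5 and 79.4 CPM in LPS, with a blocked log2 fold change of 0.81 (SE 0.14, edgeR adjusted p = 0.0193). Both were highest in LPS replicate 3, where the summed macrophage markers were also highest, and the part of those cells in the values was not tested. Fitted without the block and without any one library, the log2 fold change ran from 0.84 to 2.12 for Samhd1, from 0.22 to 1.32 for Dck, from -1.18 to -0.47 for Gmnn, from -1.16 to -0.60 for Wdhd1 and from -0.44 to -0.26 for Dut.

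Genes that control the G1/S step included large called differences. Of 37, 7 were called lower without the block (Ccnd1, Cdkn1c, Cdkn2c, Tfdp2, Rbl2, E2f6 and Fbxw7) and 3 higher (E2f4, E2f5 and Trp53), against 6.71% and 9.09% of all genes. With the block 12 were called lower and 5 higher, against 14.9% and 15.4%. Ccnd1, the cyclin D that starts the phosphorylation of the retinoblastoma protein, was at 532, 499 and 353 CPM in control replicates 1, 2 and 3 and 215, 166 and 214 CPM in LPS replicates 1, 2 and 3. Every LPS library was below every control, a log2 fold change of -1.22 (SE 0.19, edgeR adjusted p = 0.0137). Ccnd2 was at 704, 609.9 and 304 CPM in control and 456, 428 and 220.4 CPM in LPS. Its libraries numbered 3 were the lowest of both groups, and it was called with the block alone, at a log2 fold change of -0.53 (SE 0.06, edgeR adjusted p = 0.00742).

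Of the inhibitors of cyclin-dependent kinases, Cdkn1c and Cdkn2c were called lower, and Cdkn1a was called higher with the block alone. Cdkn1b, Cdkn2a, Cdkn2b and Cdkn2d were called in neither fit, with log2 fold changes from -0.26 to -0.09 without the block. Cdkn1c, which encodes p57, had the largest decrease of the list, from 109.7, 129 and 31.7 CPM in control to 12.0, 11.5 and 10.4 CPM in LPS, a log2 fold change of -2.99 (SE 0.53, edgeR adjusted p = 0.0186). Control replicate 3 was far below the other controls and still above each LPS library. Cdkn2c, which encodes the CDK4 and CDK6 inhibitor p18, went from 15.8, 18.1 and 33.5 to 8.10, 7.36 and 7.59 CPM, a log2 fold change of -1.55 (SE 0.31, edgeR adjusted p = 0.0256). Cdkn1a and Trp53 were chosen for naming after their values were seen. Cdkn1a, which encodes p21, was at 410.2, 379 and 309 CPM in control and 547, 558 and 438 CPM in LPS. Its groups did not overlap, with 0.49 (SE 0.15, edgeR adjusted p = 0.0801) without the block and 0.49 (SE 0.06, edgeR adjusted p = 0.00822) with it. Trp53, which encodes the factor p53 that induces p21, was higher at 76.6, 75.4 and 77.4 against 115, 106 and 92.6 CPM, a log2 fold change of 0.45 (SE 0.09, edgeR adjusted p = 0.0299). Mdm2, the ubiquitin ligase of p53, was called with the block, at 0.55 (SE 0.06, edgeR adjusted p = 0.00571).

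Among E2F factors and their partners, Tfdp2, a dimer partner of E2F factors, went from 39.7, 39.7 and 36.5 CPM in control to 21.4, 19.2 and 21.9 CPM in LPS, a log2 fold change of -0.89 (SE 0.09, edgeR adjusted p = 0.00346). It was the one gene of both lists whose call held in the fits without any one library, with edgeR adjusted p-values up to 0.0305 and a lower level in every LPS library. E2f5, a repressing E2F factor, went from 11.0, 10.8 and 10.5 to 15.8, 15.4 and 14.5 CPM, a log2 fold change of 0.50 (SE 0.10, edgeR adjusted p = 0.0228). E2f2, an activating E2F factor, was at 2.88, 3.81 and 11.2 CPM in control and 1.53, 1.34 and 2.04 CPM in LPS, with control replicate 3 far above the rest, and was called with the block at -1.66 (SE 0.35, edgeR adjusted p = 0.0287). Rbl1, which encodes the retinoblastoma relative p107, was called with the block at -0.49 (SE 0.10, edgeR adjusted p = 0.0240) and Mycn at -1.09 (SE 0.19, edgeR adjusted p = 0.0201). Without any one library the log2 fold changes ran from -1.36 to -1.09 for Ccnd1, from -3.38 to -2.64 for Cdkn1c, from -1.74 to -1.12 for Cdkn2c and from 0.48 to 0.54 for E2f5. For genes called with the block alone they ran from -0.78 to -0.14 for Rbl1, from -2.19 to -1.01 for E2f2, from -0.82 to -0.29 for Ccnd2, from -1.54 to -0.70 for Mycn and from 0.39 to 0.75 for Mdm2, while Cdkn1a ran from 0.40 to 0.59. Omitting control replicate 1 left 2 called lower, against 1.25% of all genes. Omitting control replicate 2, LPS replicate 1 or LPS replicate 2 left 1, against 0.72%, 1.44% and 1.04%. All of these shares were below the 6.71% of the main fit, so calls were lost across the whole table. The number called higher was 0 without each of these libraries and 5 without LPS replicate 3. Shares of all genes called higher were not counted in these fits.

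**Figure D5:**
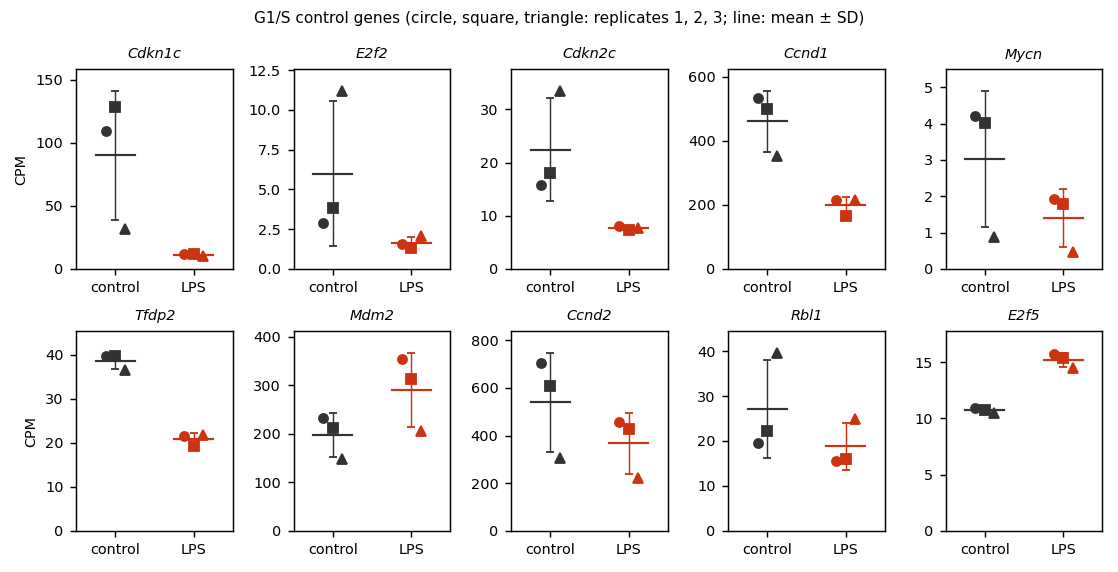
CPM of the 10 G1/S control genes with the largest change among those called in either fit, with 1 symbol per library (circle, square and triangle for replicates 1, 2 and 3) and a line at the mean with bars of 1 SD. For Cdkn1c, E2f2, Cdkn2c, Ccnd1, Tfdp2 and E2f5 the groups do not overlap, while for Ccnd2, Mdm2, Rbl1 and Mycn the difference shows within pairs of the same number.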

How the data were processed

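Poly(A) RNA of 6 EGC cultures (3 control, 3 LPS) was measured by stranded RNA-seq. Per the submitters' processing notes, reads were trimmed (cutadapt 1.15), cleared of contaminants (Bowtie2 2.3.3.1), mapped to GRCm38 (STAR 2.5.2b), filtered (SAMtools 1.5) and counted per gene (featureCounts 1.5.3). The authors deposited raw counts for 46603 gene identifiers in each library, without pooling or normalization. The strand setting of the counting and the treatment of reads with several matches are not given in the sources used here, so genes with overlapping or near-identical partners are uncertain.

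The 35 genes and all lists were chosen with earlier results of these data known. Libraries were grouped by the treatment label, and total counts of 18775316 to 23664312 set the precision. Genes were kept with edgeR's filterByExpr (minimum count 10, minimum total 15), which left 15226. LPS was compared with control by edgeR 4.0.16 (R 4.3.3) with TMM factors and the quasi-likelihood F test, two-sided, with Benjamini-Hochberg adjustment over all 15226 genes and a threshold of 0.05. The SE was the log2 fold change over the square root of F. Deviations from the group means of libraries with the same number had r = 0.501, 0.328 and 0.617 over 15134 genes, so that the numbers were treated as pairs, although the labels do not say what a number stands for and LPS replicate 2 was more like control replicate 1 (r = 0.404). A fit with the number as a block is given where it changes a call. All 35 genes are named, and of the other replication and G1/S control lists the called genes, at most 10 each by size of change. Uncalled inhibitors of cyclin-dependent kinases are named as well. Alternatives were 3 other scalings, 2 other filters, DESeq2 1.42.0, limma-voom (limma 3.58.1), the block and each library left out. After the data were seen, both replicates 3 were left out, and the block was fitted without each pair and with other scalings. The fits were tested on simulated counts of independent libraries, with an outcome not reported here. These counts held no shift shared by a replicate number and no outlying library. They could not decide whether the block suits these data or what control replicate 3 does to the fits. Some genes of the marker lists and of the likeness ranking are not reported here. A table of the whole series repeated the same counts and was not used. Exon lengths and overlaps came from GENCODE M21, and promoters from RefSeq (GRCm38.p6).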

Additional observations from a re-analysis of the deposited data

How the results depend on the processing

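The main limits are the 3 libraries per group and the high values of control replicate 3. Of 525 values of the 35 genes under the alternatives, not counting the block fitted without a pair or with another scaling, 481 kept their direction and their side of the threshold, 28 kept their direction and were newly called, and 16 turned direction, 0 of them called. The causes of these shifts were not tested. Of the 35, the number called lower (0 as reported) was 3 with upper-quartile factors (10.4% of all genes), 5 with library size alone (13.5%) and 5 with DESeq2 (11%). With the replicate block it was 6 (14.9%), and with the block 5 under RLE factors (14.4%, Chaf1b lost), 9 under upper-quartile factors (22.8%) and 15 under library size alone (27.6%). These scalings moved the median of all genes to -0.004, -0.12 and -0.18 from -0.02. Leaving out 1 library gave 0 to 1 (Rrm1 without LPS replicate 3), leaving out both replicates 3 gave 7, and the replicate block without 1 pair gave 0 to 10. The median log2 fold change ran from -0.72 without control replicate 1 to -0.18 without control replicate 3, and was -0.18 without both replicates 3.

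Without control replicate 3 the log2 fold change was 0.0055 for Orc1, 0.0086 for Cdt1, 0.036 for Cdc45, 0.25 for Pold1 and 0.036 for Ccne2. Without both replicates 3 it was 0.046 for Orc1, 0.10 for Cdc6, 0.095 for Cdc45, 0.23 for Pold1 and 0.25 for Ccne2. Over the fits without 1 library the values ran from -0.52 to 0.0055 for Orc1, from -0.49 to 0.0086 for Cdt1, from -0.64 to 0.036 for Cdc45, from -0.21 to 0.25 for Pold1 (0.012 without LPS replicate 2), from -0.47 to 0.036 for Ccne2 and from -0.033 to 0.19 for E2f1. E2f1 was at -0.066 with upper-quartile factors, -0.12 with library size alone, -0.033 without control replicate 1, -0.0100 without control replicate 2 and -0.021 without LPS replicate 3.

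For the other replication genes, the number called lower (3) is given beside the share of all genes called lower, 6.71% in the main fit. It was 7 with upper-quartile factors (10.4%), 10 with library size alone (13.5%) and 1 without a filter (3.28%). DESeq2 called 9 (11%), limma-voom 1 (6.05%) and the replicate block 7 (14.9%). Without 1 library the number was 0 to 2 (0.72% to 9.13%). The number called higher (1, against 9.09% of all genes) was 2 with DESeq2, 3 with the block (15.4%) and 0 to 2 without 1 library. Of the G1/S control genes, the number called lower (7) was 12 with the replicate block (14.9% of all genes) and 1 to 7 without 1 library (0.72% to 9.13%). The number called higher (3, against 9.09% of all genes) was 1 with upper-quartile factors, 0 with library size alone and 0 without a filter. It was 5 with the block (15.4%) and 0 to 5 without 1 library. Shares of all genes called higher were not counted with other scalings or filters, with DESeq2 or without 1 library. With the window of 250 bases before the start alone, 27.6% of the matched promoters held the E2F letters.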
